A study of Mus musculus with 3 samples.

Results

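Detected antisense RNAs in macrophage nuclei were defined as the genes whose annotated isoforms were all of the class antisense and whose TPM was at least 2 in each of the 3 libraries. TPM is a level per transcript length, scaled to a fixed sum within a library. The rule kept 149 of 2948 antisense genes, among 55536 annotated genes. The genes were chosen by their measured TPM, so their levels, and how these stand to other genes, are given as a description with no test. Only differences between the libraries were tested.

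The libraries came from bone-marrow-derived macrophages of C57BL/6J mice, primary cells grown from marrow, and the age and sex of the mice were not collected. The cells had received 100 ng/ml lipid A, the TLR4-binding part of bacterial lipopolysaccharide, for 12 h, had been washed and left for 12 h, and had been stimulated again with 100 ng/ml for 15 min. RNA of the nucleoplasmic fraction was sequenced as total RNA after ribosomal depletion, with 1 µg of RNA put into replicates 1 and 3, and 500 ng into replicate 2. All 3 replicates belong to this 1 group and carry 1 donor identifier. Whether they came from separate mice is not stated, so the spread between them may be technical, and no untreated or cytoplasmic library was analysed here.

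An antisense RNA is transcribed from the strand opposite to another gene, and many antisense RNAs are spliced, poorly conserved and held in the nucleus. Some act on the gene they overlap: Airn, antisense to part of the imprinted gene Igf2r, silences it in cis in mouse. Others start back to back with a coding gene, or carry a small RNA inside their exons, and for most no function is known. Of the 149 detected genes, 91 had provisional Gm symbols, 37 had Rik clone symbols and 12 had symbols ending in os, for opposite strand.

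Sequences of 3 kinds show what such a gene can hold. F630028O10Rik lies at chrX:96239926-96243636 on the plus strand (mm10) and is the host of Mir223, a microRNA of myeloid cells. The hairpin occupied bases 1952 to 2061 of the isoform F630028O10Rik-201 and bases 2436 to 2545 of F630028O10Rik-202. Its mature products, from RefSeq on GRCm38.p6, are shown with the seed, bases 2 to 8, in capitals.
miR-223-3p: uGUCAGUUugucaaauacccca
miR-223-5p: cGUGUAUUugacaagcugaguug

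The second kind is a gene nested in the exons of its partner. All 415 bases of Gm26716, at chr4:130824394-130826313 on the minus strand, lay in exons of Sdc3 on the plus strand. Its first 222 bases were the reverse complement of an unbroken stretch of the transcript Sdc3-201. A window from GENCODE M21 transcripts, bases 97 to 126 of Gm26716-201 and 4842 to 4871 of Sdc3-201, shows that a read from it carries the same letters for both genes once its strand is lost.
Gm26716-201: cttcccaagccaggggtgtacgagcgccca
Sdc3-201: tgggcgctcgtacacccctggcttgggaag
Gm17122, within the exons of Coro1c on chromosome 5, shared 293 of its 372 bases with Coro1c-201 in the same way.

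The third kind is a gene that starts back to back with another. 4930599N23Rik and Parp12, an interferon-inducible ADP-ribosyltransferase, start 124 bases apart on opposite strands of chromosome 6. Their promoter windows, 250 bases before to 50 after each RefSeq start on GRCm38.p6, overlap at chr6:39118223-39118522 on the plus strand and chr6:39118300-39118599 on the minus strand. This pair was chosen for its motif and lies outside the rule for named genes. Capitals mark a match to the interferon-stimulated response element, searched as GAAA, any 2 bases and GAAA.
4930599N23Rik: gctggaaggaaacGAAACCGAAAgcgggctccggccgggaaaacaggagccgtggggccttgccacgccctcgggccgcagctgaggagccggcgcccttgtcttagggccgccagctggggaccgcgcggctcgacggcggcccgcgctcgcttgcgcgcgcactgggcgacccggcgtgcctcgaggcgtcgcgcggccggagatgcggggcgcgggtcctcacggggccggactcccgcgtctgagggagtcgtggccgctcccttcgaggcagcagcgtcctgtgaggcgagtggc
Parp12: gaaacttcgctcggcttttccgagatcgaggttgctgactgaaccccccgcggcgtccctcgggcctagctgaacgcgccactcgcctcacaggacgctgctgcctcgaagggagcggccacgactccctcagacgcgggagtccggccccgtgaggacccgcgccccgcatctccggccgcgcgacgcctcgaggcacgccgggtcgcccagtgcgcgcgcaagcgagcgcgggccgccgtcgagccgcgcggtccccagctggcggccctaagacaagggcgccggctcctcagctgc

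Replicates 1, 2 and 3 had totals of 23826101, 19312032 and 21730342 expected counts on annotated genes. The detected antisense genes took 0.230%, 0.241% and 0.231% of these counts. All 7 macrophage markers examined, among them Adgre1 and Csf1r, were at the threshold, with a summed level of 2300 to 3538 TPM per library. Of 3 markers each for T cells, B cells, neutrophils, dendritic cells and fibroblasts, 0 reached it, and the nuclear RNAs Malat1 and Neat1 both did. The threshold was met by 5.05% of antisense genes, against 121 of 5854 lincRNA genes (2.07%) and 8287 of 22028 protein-coding genes (37.6%).

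The position of the detected genes relative to the other strand bears on how their reads could be assigned. Of the 149, 21 had at least 50% of their exonic bases in exons of genes on the other strand, and 82 had at least 50% in introns. In 41, called outside, under 50% lay within such genes, so some of these still overlap one. The other 5 were mixed. These classes were set after the data were seen. Exons of 101 detected genes overlapped an exon of the other strand by at least 1 base. The median detected gene had 1568 exonic bases (260 to 9734), 21 had a single exon, and 58 had an isoform of 3 or more exons.

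The expected counts show which reads had been divided between genes. A gene whose reads fit no other gene keeps whole numbers, and a gene whose reads also fit another receives fractions. Of the 42 detected genes with no exon overlap on either strand, 41 had whole counts, to within 0.005, in all 3 libraries. Of the 96 with opposite-strand exon overlap and no same-strand overlap, 23 did, so whole counts also occur where exonic bases are shared. Of the 20 among them with at least 50% of exonic bases in opposite exons, 0 did. Antisense genes with at least 10 counts in every library split alike, with 171 of 173 whole without overlap and 0 of 45 whole with such overlap. Among all genes of that depth, 8048 of 8965 without exon overlap and 6 of 202 with it were whole. Whether the libraries kept strand was not given in the sources used here. In bases shared by opposite exons, reads of the antisense gene and of its partner therefore cannot be told apart in these tables. Levels of the 21 exon-nested genes are uncertain, and divided reads also enter the levels of other detected genes.

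**Figure D1:**
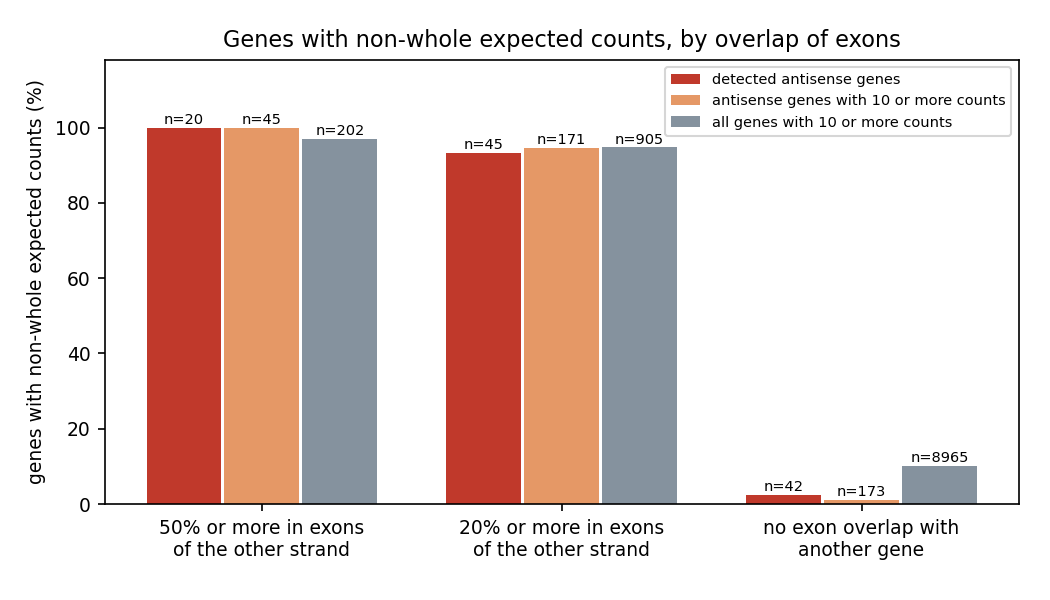
Percentage of genes whose expected counts were not whole numbers in all 3 libraries, by overlap of their exons with exons of the other strand (x axis), for the detected antisense genes, for antisense genes and for all genes with at least 10 counts in every library; n is the number of genes behind each bar, and the first and second categories overlap. Of the detected antisense genes, 100% of the 20 in the first category and 2.38% of the 42 without overlap had non-whole counts.

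Intron-nested genes had whole counts in 50 of 82 cases. Their reads can also come from unspliced RNA of the partner, which is present in nuclei, and the part of such RNA in their levels was not tested.

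The level of the gene on the other strand moved with detection. Among antisense genes mostly in opposite exons, 1 of 164 (0.610%) was detected where that gene averaged below 1 TPM, and 6 of 16 (37.5%) where it averaged 50 TPM or more. Among those mostly in opposite introns, the shares were 5 of 872 (0.573%) and 20 of 55 (36.4%). Of the antisense genes classed as outside, with under 50% of exonic bases within genes of the other strand, 41 of 798 (5.14%) were detected. Outside genes were not split by the level of a gene on the other strand, so whether their detection moved with it was not tested. Pooled over all levels in the same way, 21 of 373 genes (5.63%) in opposite exons and 82 of 1640 (5%) in opposite introns were detected, near the share outside. The shares are descriptions of these libraries, and the part of shared or unspliced reads in them was not tested.

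**Figure D2:**
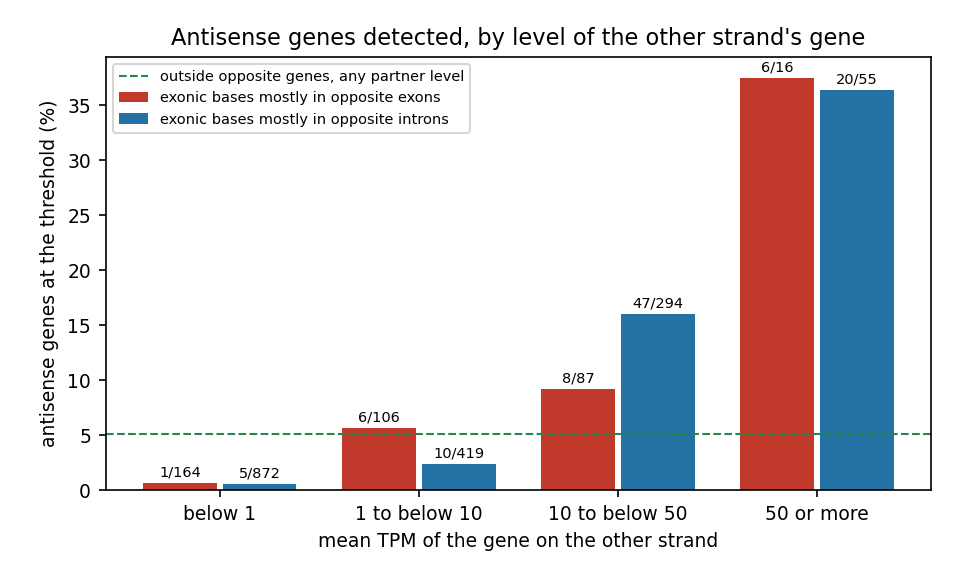
Percentage of antisense genes at the threshold of 2 TPM in all 3 libraries, by mean TPM of the gene on the other strand (x axis); numbers over the bars are detected over annotated antisense genes, and the dashed line marks the 5.14% of antisense genes outside opposite genes. Shares are 0.610% and 0.573% in the lowest bin and 37.5% and 36.4% in the highest, for genes in opposite exons and introns. The dashed line is pooled over all levels, where the shares in opposite exons and introns were 5.63% and 5%.

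Most detected antisense genes were low, and a few carried much of the signal. A mean of at least 10 TPM was reached by 24 genes, 40 averaged 5 to below 10 TPM, and 85 averaged below 5 TPM. The 5 highest held 33.2% of the summed TPM. The median over the detected genes was 3.94, 4.82 and 4.50 TPM in replicates 1, 2 and 3. The median of the mean levels was 4.34 TPM, against 7.05 TPM for lincRNAs and 10.2 TPM for protein-coding genes at the same threshold.

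At the threshold itself, 4930539J05Rik had 2.00, 3.32 and 3.92 TPM and Gm30934 had 2.03, 2.01 and 2.78 TPM. Also just inside were CR974462.4, with a lowest value of 2.05 TPM, and 9130221H12Rik, with 2.04 TPM. Just outside were 4933431G14Rik with a lowest value of 1.97 TPM, E430024P14Rik with 1.96, and 2610020C07Rik and AC090479.2 with 1.93 each. In 21 of the detected genes some library held fewer than 30 counts.

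**Figure D3:**
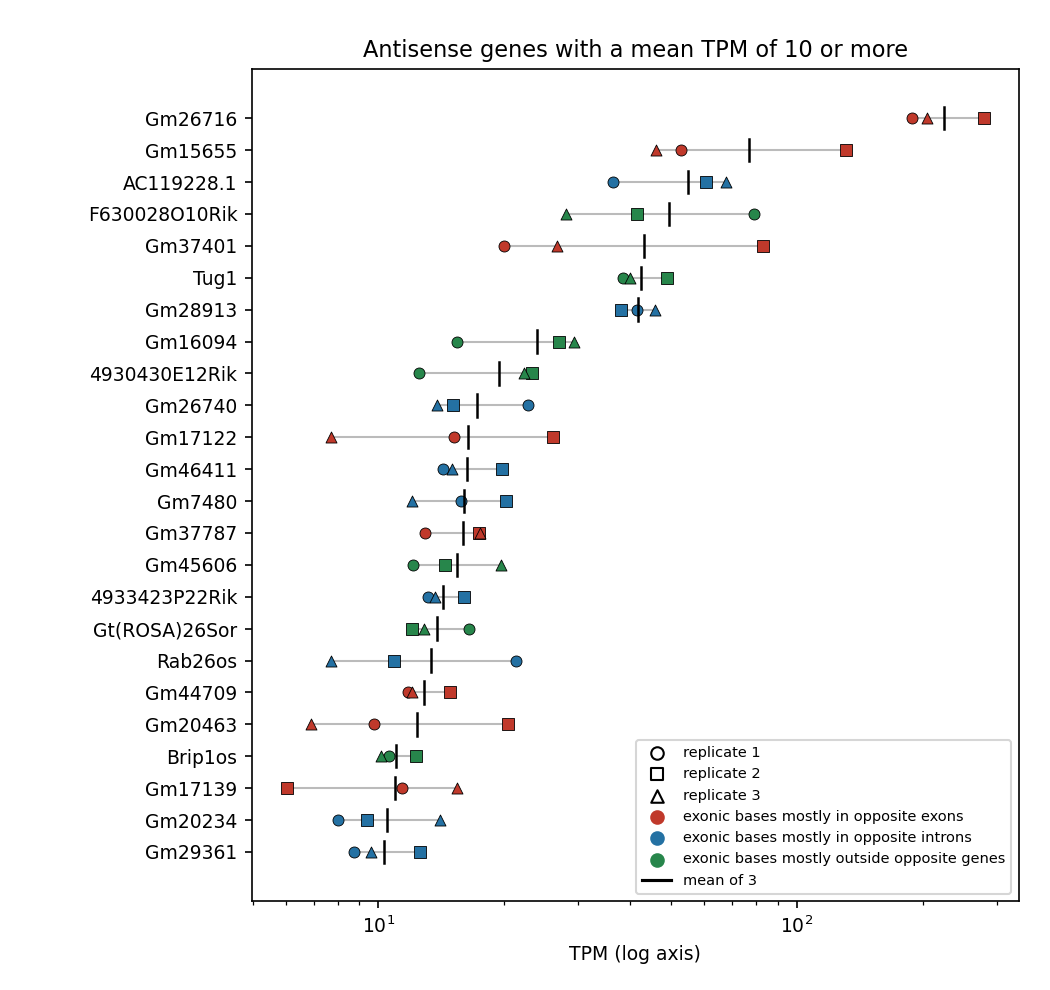
TPM (log axis) of the 24 detected antisense genes with a mean of at least 10 TPM; circles, squares and triangles are replicates 1, 2 and 3, the vertical tick is their mean, and colour gives the position relative to the other strand. Gm26716 stands highest at a mean of 224 TPM, and several exon-nested genes, such as Gm37401 from 20.0 to 83.0 TPM, spread widely.

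The authors deposited gene tables in the format of RSEM, the source of all levels unless stated, and transcript tables in the format of kallisto, summed here per gene. To compare them, both were rescaled so that nuclear-encoded protein-coding genes had the same sum in each library. In the RSEM-format tables the exon-nested genes included the 2 highest levels. On rescaled kallisto-format TPM they did not, with Gm28913 highest at 651 and Gm15655 and Gm26716 at 197 and 148. Gm26716 had 189, 279 and 204.5 TPM in replicates 1, 2 and 3, a mean of 224 ± 48.5 TPM (SD, n = 3), against 222 ± 9.78 TPM for Sdc3, which encodes the heparan sulfate proteoglycan syndecan-3. The antisense and coding values overlapped. Its counts were 1337, 1426 and 1513, all divided, and on the rescaled scale the kallisto-format tables placed it at 0, 373 and 70.3 TPM, where the RSEM-format mean was 1066.

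Gm15655, at chr8:115705078-115707233 in the exons of Maf, a transcription factor of macrophage identity, had 52.8, 131 and 46.1 TPM. Maf had 115, 126 and 103 TPM, so that the antisense gene lay above its partner in replicate 2 and below it in the others. Gm37401, opposite the exons of Rhoa, a small GTPase of the cytoskeleton, and starting 630 bases from the start of the glutathione peroxidase gene Gpx1, had 20.0, 83.0 and 26.6 TPM. It rested on 94.4, 282 and 140 counts. Gm17122, opposite Coro1c, an actin-binding coronin, had 15.2, 26.1 and 7.69 TPM, and Coro1c had 39.9, 48.4 and 38.1 TPM. Gm20463, in the exons of the ubiquitin ligase gene Rnf5, had 9.75, 20.4 and 6.88 TPM, against 6.91, 7.29 and 6.13 TPM for Rnf5. In each of these 4 genes replicate 2 was highest. Without it the mean of Gm37401 was 23.3 TPM in place of 43.2, and that of Gm15655 was 49.5 TPM in place of 76.7.

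The kallisto-format and RSEM-format tables differed by position. The ratio of kallisto-format to RSEM-format levels, each rescaled to protein-coding genes, had a median of 1.10 over all detected genes. It was 0.725 for exon-nested genes, 1.15 for intron-nested genes and 1.16 for genes outside. All 6 genes with a ratio under 0.5 were exon-nested, led by Gm20659 at 0 and Gm17139 at 0.037, and 116 genes lay between 0.5 and 2. A ratio over 2 was found for 27 genes, up to 7.40 for the intron-nested Gm15726.

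Among genes with no exon overlap on the other strand, F630028O10Rik, the Mir223 host introduced above, was highest in the RSEM-format tables. On rescaled kallisto-format TPM it averaged 182, below Gm20234 at 329, Gm16094 at 304, Gm17160 at 203 and 4930430E12Rik at 185. It had 78.9, 41.5 and 28.1 TPM from 8100, 2977 and 2506 whole counts, and no gene overlapped it on the other strand or started within 1 kb there. Replicate 1 lay above both others. In edgeR's quasi-likelihood test of replicate 1 against the others its log2 fold change was 1.32 with a Benjamini-Hochberg adjusted p of 0.065, which missed the threshold. DESeq2 gave 1.32 with an adjusted p of 0.00966. The tables measure the host RNA, and the mature microRNAs were not measured.

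Tug1, a conserved nuclear RNA, had 38.3, 48.8 and 40.0 TPM, or 42.4 ± 5.66 TPM (SD, n = 3). It exceeded Morc2a, which encodes a chromatin ATPase and starts 482 bases away on the other strand, at 12.5 ± 1.30 TPM in all 3 libraries. Of its 8 isoforms the leading one, Tug1-205, took 28.7 ± 9.33% of the gene's TPM. Rab26os, which has Snord60 in an exon, had 21.4, 10.9 and 7.69 TPM from 83, 29 and 36 counts. Rab26, the small GTPase gene it overlaps, had 0.43 ± 0.052 TPM, and the ubiquitin ligase gene Traf7, whose start lies 310 bases away, had 26.1 ± 1.06 TPM.

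Airn had 5.65, 4.86 and 3.67 TPM from 177, 112 and 98 whole counts. Igf2r, the receptor gene silenced by Airn on the paternal allele in mouse, had 25.4, 20.2 and 19.9 TPM, above Airn in every library of the RSEM-format tables. On the rescaled scale Airn averaged 102 TPM in the kallisto-format tables, 4.50 times its RSEM-format level. The tables do not separate alleles. Gt(ROSA)26Sor, the transcript of the ROSA26 locus used for transgenes, had 16.5, 12.0 and 12.8 TPM and starts 32 bases from Setd5, at 45.9 ± 8.33 TPM.

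The opposite-strand partners were mostly coding genes at higher levels. The partner was taken as the gene with the largest exon overlap, else the largest overlap of gene bodies, else the nearest start within 1 kb. A partner was found for 142 detected genes, 133 distinct genes in all, and 137 of the 142 were protein-coding. The partner itself was at the threshold in 127 of 142 cases (89.4%), against 997 of 2689 (37.1%) for antisense genes below the threshold. The partners' median level was 22.5 TPM.

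The detected antisense genes lay below their partner in all 3 libraries in 116 cases, at or above it in all 3 in 19, and varied in 7. The median difference in log2(TPM + 1), antisense minus partner, was -2.00, -2.09 and -2.09, a mean of -2.06 ± 0.05 (SD, n = 3). It was negative in 3 of 3 libraries. This is a description, since the rule used the antisense levels, and an exact sign-flip test over 3 libraries could not give a p below 0.25. By position the median over genes of the mean difference was -1.02 for exon-nested genes, -2.23 for intron-nested genes and -2.11 for those outside.

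The rank correlation between antisense and partner level, across genes that share libraries and are not independent, was 0.287 over 142 pairs. It was 0.604 over the 21 exon-nested pairs, which also share reads, 0.158 over 82 intron-nested pairs and 0.317 over 34 pairs outside.

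**Figure D4:**
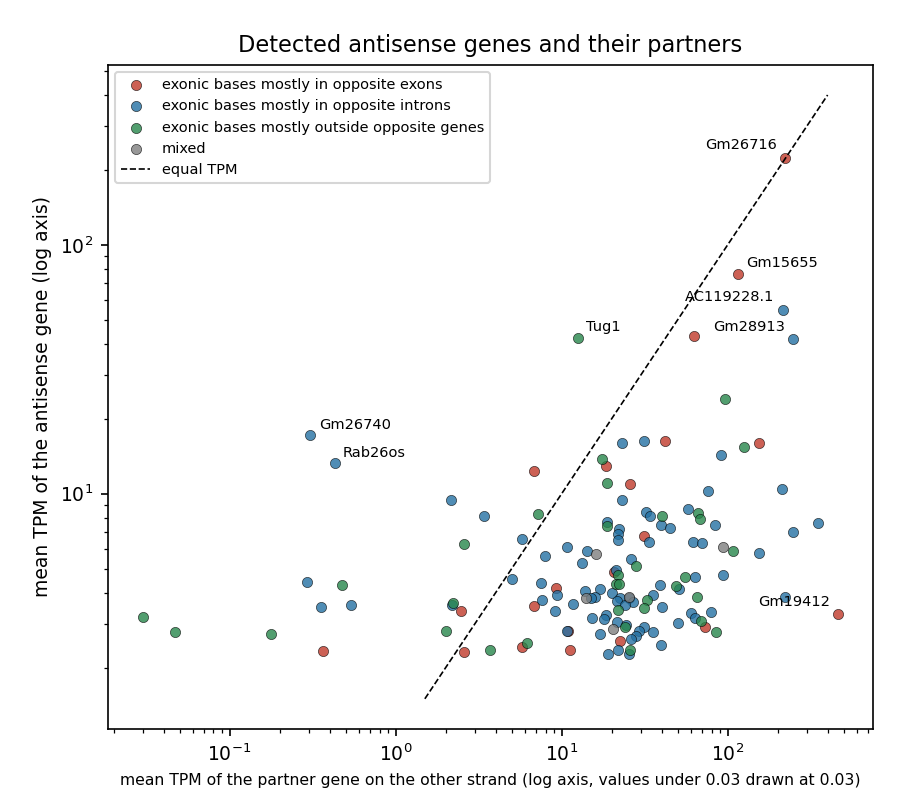
Mean TPM of each detected antisense gene (y axis, log) against that of its partner on the other strand (x axis, log) for 142 pairs, coloured by position; the dashed line marks equal levels. Most pairs lie right of the line, and 19 antisense genes were at or above their partner in all 3 libraries. The exon-nested Gm26716 and Gm15655 lie near the line, and the exon-nested Gm19412 lies furthest below its partner.

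Some partners have roles in innate immunity. Ikbke encodes the kinase IKK-epsilon, which activates IRF3 downstream of innate sensors, and 2 detected genes lie mostly in its introns. Gm28913, at chr1:131263330-131266749, had 41.5, 38.0 and 45.7 TPM from 220, 145 and 265 whole counts, and Gm28914 had 6.95, 6.63 and 7.40 TPM. Ikbke had 232, 224 and 286 TPM, above both in every library. They were the detected genes among 11 antisense to the 101 genes of a list of TLR4, NF-kappaB and inflammatory genes (18.2%), against 5.05% of all antisense genes. Where the gene on the other strand averaged 50 TPM or more, the shares were 37.5% for antisense genes in its exons and 36.4% for those in its introns.

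AC119228.1, at chr19:29373417-29384471, lay mostly in introns of Cd274, which encodes the T cell checkpoint ligand PD-L1. It had 36.4, 60.8 and 67.5 TPM, and Cd274 had 132, 280 and 234 TPM. Both were lowest in replicate 1, as were 69 of the 149 detected genes. The antisense gene's counts of 5269, 6293 and 7620 were in part divided. Its level differed from Cd274 by -1.93 ± 0.22 (log2, SD, n = 3).

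Of 9 genes antisense to a list of 72 interferon and antiviral genes, 3 were detected (33.3%), against the same 5.05% overall. Gm20234, mostly in introns of Slfn2, a Schlafen gene, had 8.02, 9.38 and 14.1 TPM, against 212 ± 41.4 TPM for Slfn2. Its counts of 145, 121 and 239 were in part divided, although its exons overlap no exon of another gene. On the rescaled scale Gm20234 averaged 329 TPM in the kallisto-format tables and 50.2 TPM in the RSEM-format tables. Gm45479, within introns of Irf2, a transcription factor that binds interferon response elements, had 8.64, 5.96 and 7.87 TPM, against 39.7 ± 4.73 TPM for Irf2. Gm13822 starts 37 bases from Oasl1, a translational inhibitor of the interferon response in mouse, and had 5.33, 5.33 and 7.06 TPM from 25, 18 and 37 counts, with 107 ± 31.0 TPM for Oasl1. All 3 antisense genes were highest or second highest in replicate 3, and all 3 lay below their partner in every library.

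The neighbouring Sp genes, interferon-inducible nuclear body proteins on chromosome 1, carried 3 detected genes. Gm16094, at chr1:85599286-85599839, starts 469 bases from Sp110 and shares no exon with it. It had 15.4, 27.0 and 29.3 TPM from 116, 146 and 228 whole counts, against 84.1, 91.3 and 113 TPM for Sp110. Gm17017, opposite Sp140 with its start 597 bases from that of Sp100, had 4.34, 4.53 and 5.04 TPM, and Gm10552, mostly in introns of Sp140, had 2.94, 2.89 and 3.69 TPM. Sp140 had 45.4, 56.5 and 87.8 TPM. The 3 antisense genes, Sp110 and Sp140 were all highest in replicate 3, while Sp100, with 122, 150 and 146 TPM, was highest in replicate 2. Among all 142 pairs, 72 antisense genes were highest in the same library as their partner. Gm10552 and Gm17017 are named outside the rule.

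Of 11 genes antisense to the 62 genes of a list of macrophage identity, lysosome and metabolism, 1 was detected (9.09%), the Maf-nested Gm15655 described above, against 5.05% of all antisense genes. Among antisense genes in exons of a gene that averaged 50 TPM or more, as Maf did, 37.5% were detected. The largest gap to a partner was that of Gm19412, an exon-nested gene, so that its level is uncertain. It had 3.28 ± 0.898 TPM, against 463 ± 55.4 TPM for Tapbp, which encodes the peptide-loading protein tapasin. The difference was -6.77 ± 0.15 (log2, SD, n = 3). Gm12970 in Sdc3, Gm2245 in the adaptor gene Fyb, Gm28914 in Ikbke and Gm29083 in the receptor gene Nrp2 followed, with differences of -5.54, -5.36, -4.95 and -4.56. Library values of these 5 antisense genes ran from 2.74 to 8.53 TPM, and all were below their partner in every library.

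The detected genes at or above their partner in all 3 libraries were 8 intron-nested, 8 outside and 3 exon-nested genes. Gm26740, within introns of Raet1e, which encodes a ligand of the NK cell receptor NKG2D, had 22.8, 15.1 and 13.8 TPM from 1037, 502 and 545 whole counts. Raet1e had 0.35, 0.31 and 0.26 TPM, a difference of 3.77 ± 0.32 (log2, SD, n = 3), the largest among the 142 pairs. Rab26os followed with 3.21 ± 0.64. Gm4673 exceeded the lipoprotein receptor gene Lsr by 2.06 ± 0.12, and starts 106 bases from Usf2, a transcription factor gene at 12.5 ± 1.76 TPM. 1600010M07Rik, which spans the small RNA gene Gm23100 listed at 0 TPM, had 2.69, 3.78 and 3.12 TPM. Gm11696 had 2.64, 2.73 and 2.98 TPM, and its overlapping partner 1700096J18Rik was at most 0.14 TPM.

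Genes whose symbols name a gene of the other strand lay above it in some cases and below it in others. Brip1os had 11.0 ± 1.13 TPM, against 0.687 ± 0.379 TPM for the helicase gene Brip1, whose start lies 177 bases away, and 18.7 ± 2.66 TPM for Med13, its partner by exon overlap. Mypopos had 9.46 ± 2.10 TPM and exceeded Mypop, at 2.15 ± 0.354 TPM, in every library. Rab10os had 8.13 ± 2.16 TPM, against 40.4 ± 4.93 TPM for the GTPase gene Rab10. Peak1os, Adap2os, Uckl1os and Zmiz1os1 had means of 7.71, 6.39, 3.91 and 4.26 TPM, against 18.8, 61.6, 35.6 and 48.9 TPM for Peak1, Adap2, Uckl1 and Zmiz1. The gene labelled Trmt61b, all isoforms of which are antisense in this annotation, had 3.50 ± 0.648 TPM and exceeded Spdya, at 0.353 ± 0.0351 TPM. Etohd2 had 3.32 ± 0.599 TPM inside Tut7, a terminal uridylyltransferase gene at 60.4 ± 4.14 TPM.

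The remaining genes at high levels were of the same kinds. Gm46411, within introns of the transcription factor gene Rreb1, had 14.3, 19.7 and 15.0 TPM from 940, 920 and 876 whole counts, against 31.4 ± 3.76 TPM for Rreb1. 4930430E12Rik, with no gene on the other strand, had 12.5, 23.3 and 22.3 TPM. AC132460.3, a single-exon gene in an intron of Anks1, had 8.14, 6.08 and 7.46 TPM. For 9 partners 2 detected genes each were found, so that 18 detected genes share a partner.

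Starts close to a start on the other strand were frequent. Of the detected genes, 46 (30.9%) started within 1 kb of such a start, against 626 of 2799 (22.4%) of antisense genes below the threshold and 6752 of all 55536 genes (12.2%). Genes of other classes at the same threshold had 27.4%. Within 500 bases the shares were 21.5% of detected, 14.3% of other antisense and 9.07% of all genes, and 22.0% of other classes at the threshold. The share of the detected antisense genes stood near that of the other genes at the threshold. Of all detected genes 69 lay inside their partner gene and 17 overlapped it tail to tail.

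Promoter sequences were matched for 59 detected genes, with 75 RefSeq promoters. The 23 promoters of 21 genes that start head to head held a median of 25 CG dinucleotides per 300-base window, against 4 for the 52 promoters of other detected genes and 7 over all 32851 promoters. The interferon-stimulated response element, on either strand, was found in 5 of 75 promoters (6.67%), against 3.44% of all, in F630028O10Rik, Rab10os, Zmiz1os1, 1600010M07Rik and the 4930599N23Rik promoter shown above. The TATA box TATAAA was in 7 (9.33%), against 13.6% of all, among them Airn and Rab26os. The AP-1 motif TGANTCA was in 7 (9.33%), against 7.81%, and the kappaB motif, searched as GGGA, any 2 bases and TTCC, in 0, against 1.47%. A match describes letters, and binding was not measured.

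4930599N23Rik had 2.91, 2.93 and 5.55 TPM from 70, 50.1 and 123 counts, highest in replicate 3. Parp12 had 71.9 ± 9.53 TPM.

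The spread of the detected genes between libraries lay between those of lincRNAs and of coding genes. Their median SD of log2(TPM + 1) was 0.24, against 0.28 for lincRNAs and 0.20 for protein-coding genes at the threshold. The ratio of the highest to the lowest library had a median of 1.45, was over 2 in 23 genes and over 3 in 4. The highest value fell in replicate 2 for 72 genes, in replicate 3 for 55 and in replicate 1 for 22. Genes of any class at the threshold also had their highest median in replicate 2, as the detected antisense genes had: in replicates 1, 2 and 3 the median log2(TPM + 1) was 2.30, 2.54 and 2.46 for the detected antisense genes, against 3.33, 3.51 and 3.32 for all genes at the threshold. Replicate 2 had the lower RNA input, and the part of input in these levels was not tested. Rank correlations across the 149 genes were 0.821 for replicates 1 and 2, 0.804 for 1 and 3, and 0.789 for 2 and 3.

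The widest spread was that of Gm37401, with an SD of 1.06, followed by Gm17122 (0.82), Gm15655 (0.81), Gm12905 (0.75) and Gm20463 (0.74). Of these 5, 4 are exon-nested. Gm12905, opposite Mycbp and 177 bases from the start of Rragc, a subunit of the amino acid sensing Rag GTPases, had 2.39, 7.71 and 7.01 TPM from 38, 66 and 106 whole counts. Gm28914 had an SD of 0.07 and Gm28913 one of 0.13.

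Each library was tested against the other 2 across 14350 genes with edgeR's quasi-likelihood test, which describes libraries and not conditions. Of the 147 detected antisense genes tested, 0 were called in replicate 1, where 0.202% of all genes were called. In replicate 2 the count was 0 against 0% of all genes, and in replicate 3 it was 0 against 0.00697%. At an unadjusted p under 0.05 there were 14, 10 and 10 detected antisense genes in replicates 1, 2 and 3 (9.52%, 6.80% and 6.80% of those tested), against 6.15%, 6.11% and 3.74% of all genes. DESeq2 called 1, 0 and 0 of them, the 1 being F630028O10Rik.

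Isoforms were measured for the 68 detected genes that have at least 2. The leading isoform took a median of 74.8% of the gene's TPM, over 90% in 19 genes and under 50% in 10. The leading isoform of Airn, Airn-205, took 37.7 ± 4.89%, that of Gt(ROSA)26Sor 84.8 ± 2.26% and that of Brip1os 91.7 ± 1.37%. The most divided gene was E130307A14Rik, with 13 isoforms and a leading share of 26.2 ± 2.28%.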

How the data were processed

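Total RNA-seq of 3 nuclear libraries was analysed. Per the file headers and notes, the authors aligned reads to the mm10 transcriptome with GENCODE M21 for gene and transcript tables in the format of RSEM, and made a transcript table in the format of kallisto from the reads and an index. Tool versions and library strand were not given in the sources used here. Expected counts, as deposited, are the authors' estimated counts, not normalised, and the deposited TPM and FPKM values were scaled by the authors within each library. Kallisto-format TPM was summed per gene. Rescaled levels set the nuclear-encoded protein-coding genes to a sum of 1000000 in each library.

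Classes and positions came from GENCODE M21, whose identifiers and build match the files, and overlaps were taken over all annotated exons and gene bodies. Levels were analysed as log2(TPM + 1). Expected counts were rounded for edgeR 4.0.16 (filterByExpr, TMM, quasi-likelihood test, Benjamini-Hochberg adjustment over all genes tested, threshold 0.05), with DESeq2 1.42.0 as the alternative, in R 4.3.3. All else was done in Python 3.11.15 with numpy 2.4.6, pandas 2.3.3, matplotlib 3.10.9 and scipy 1.17.1. Library totals run from 19312032 to 23826101 expected counts, and genes with under 30 counts are the least precise. Rows outside annotated genes were left out.

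The detected genes, the lists and the named genes were chosen with earlier results of these data known. Named were the 12 highest by mean TPM, the 4 nearest the threshold on each side, those whose partner is in a list, the 5 furthest above and the 5 furthest below their partner, the 5 with the largest SD, those called in a library test and up to 15 with other symbols. Genes in the plot of the highest levels, and those introduced as outside the rule or singled out by a motif, isoform or table difference, were taken after their values were seen. Alternatives covered the threshold, unit, pseudocount, scaling, quantification, overlap, filter, tool and the omission of each replicate.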

Additional observations from a re-analysis of the deposited data

Results flagged for a closer look

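Counts outside the annotated genes, which no comparison above uses, differed between libraries. Replicates 1, 2 and 3 had 198657, 53255 and 11883 counts in such rows, or 0.827%, 0.275% and 0.0547% of all counts. The part of these counts in the levels of the antisense genes was not tested.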

How the results depend on the processing

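The number of detected antisense genes was 296 at a threshold of 1 TPM and 60 at 4 TPM. It was 223 with FPKM in place of TPM, and 164 with posterior mean TPM, another deposited estimate. With kallisto-format TPM, which was not rescaled for this count and kept 21 of the 149 genes, it was 33. It was 161 to 166 with 1 replicate left out. The median level of the 149 genes, 2.43 in log2(TPM + 1), was 2.17 with a pseudocount of 0.1 and 4.46 on rescaled TPM. It was 4.80 on rescaled kallisto-format TPM and 2.38 to 2.50 with 1 replicate left out. With an overlap of at least 50% of the exonic bases, 21 of the 101 genes counted as overlapping exons. At 80% of the exonic bases, chosen after seeing the data, 11 genes lay in exons and 54 in introns.

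For replicate 1 against the others, DESeq2 called 76 genes, edgeR with DESeq2's size factors 2, and edgeR without a filter 0, where 29 had been called. For replicate 2, DESeq2 called 18 and the unfiltered test 349, where 0 had been called. For replicate 3 they called 33 and 161, where 1 had been called. Of the detected antisense genes, DESeq2 called 1 in replicate 1, and the unfiltered test called 6 in replicate 2, with Gm37401 and Gm15655 higher and Gm17139, Adap2os, Gm15987 and Gm26674 lower. The cause was not tested. Leaving out a replicate was not run for these tests, since 1 library against 1 leaves no residual degrees of freedom. Of the named genes, 2 had a mean that moved by over 1.5 times with 1 replicate left out, both without replicate 2: Gm37401 at 23.3 TPM and Gm15655 at 49.5 TPM. No paired analysis was possible because the 3 replicates form 1 group.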
